A study of Mus musculus with 10 samples.

Results

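The respiratory chain of the mouse retina was followed through the transcripts of 97 protein-coding genes, out of 25905 genes in the deposited table. The genes were taken by symbol. They comprise the mt-Nd, mt-Co, mt-Cyt and mt-Atp genes, the Nduf genes with a, b, c, s or v and a digit, Sdha to Sdhd, Cyc1, the Uqcr and Atp5 genes, and the Cox genes numbered 4 to 8. Of the 97, 13 are encoded on the mitochondrial genome and 84 on the nuclear genome, where they lie on 19 chromosomes, with 3 on the X chromosome. By complex, mitochondrial and nuclear genes number 7 and 36 in complex I, 1 and 9 in complex III, 3 and 18 in complex IV and 2 and 17 in complex V. Complex II has 4 genes, all of them nuclear. Ndufa4 was counted with complex IV, of which its product is a subunit, and Ndufa4l2, its relative, was placed beside it. Symbols are those of the table, in which the ATP synthase genes carry older names such as Atp5b and Atp5a1.

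The respiratory chain passes electrons from NADH (complex I) and succinate (complex II) through complexes III and IV to oxygen, and complex V, the ATP synthase, uses the proton gradient so made to form ATP. Complexes I, III, IV and V are built from subunits of both genomes. The nuclear subunits are transcribed one gene at a time, whereas mitochondrial DNA is transcribed into long precursors that are then cut into single messages. Photoreceptors hold dense mitochondria in their inner segments, and the retina is among the tissues with the highest use of oxygen.

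The libraries came from 10 retinas of wild-type C57BL/6J mice at postnatal day 34, the right and the left retina of 5 mice numbered 61, 64, 65, 66 and 68. According to the labels, a lens of -20 dioptres was worn over 1 eye of each animal for 10 days from postnatal day 24, and the other eye went without a lens. The eye that wore the lens is not named, so the groups are right retina (n = 5) and left retina (n = 5), each holding an unknown mixture of lens-wearing and untreated eyes, and the comparisons are right against left and mouse against mouse. Total RNA was depleted of ribosomal RNA and made into strand-specific libraries.

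Values are CPM, the reads counted for a gene scaled to a common library size, and 1 CPM stood for 89.7 to 113.8 counts. Per the labels, a corrupted file of reverse reads left the right library of mouse 64 with fewer of one read than of its mate. The left retina of mouse 68 stood apart by skeletal muscle transcripts: its 12 muscle markers summed to 94.3 CPM, against 2.42 to 5.10 CPM in the other 9 libraries. The right retina of mouse 65 stood apart by lens transcripts, whose 12 markers summed to 894 CPM there and to 8.95 to 129.4 CPM elsewhere. The 10 rod markers summed to 11704 to 12286 CPM in right and 11433 to 13374 CPM in left retinas, so markers of the labelled tissue were present throughout. In such bulk samples fewer cells of a type and less RNA per cell cannot be told apart.

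The mitochondrial genes overlap or abut one another, and the junctions that bear on the results below are shown here. They are from the GRCm38 sequence of the mitochondrial genome, 5′ to 3′ on the strand shown, with the bases shared by both annotated genes in capitals and 12 flanking bases on each side. Apart from these, mt-Nd5 and mt-Nd6 share 14 bases on opposite strands.
mt-Atp8 and mt-Atp6 (chrM:7915-7981, + strand): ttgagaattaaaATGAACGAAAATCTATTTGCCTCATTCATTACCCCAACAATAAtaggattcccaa
mt-Atp6 and mt-Co3 (chrM:8595-8619, + strand): tgataatacataAtgacccaccaaa
mt-Nd4l and mt-Nd4 (chrM:10155-10185, + strand): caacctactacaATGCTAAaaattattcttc
mt-Atp8 and mt-Atp6 share 43 bases, mt-Nd4l and mt-Nd4 share 7, and mt-Atp6 and mt-Co3 share 1, and in each of these junctions the capitals open with the first base of the start codon of the downstream gene. How reads over shared bases were assigned is not given in the sources used here, so the level of mt-Atp8, with 43 of its 204 bases shared, is uncertain.

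By the median level per kilobase, mitochondrially encoded transcripts stood above nuclear ones in each complex that has both. The median level per kilobase of exon over the members of complex I was 66.2 ± 18.8 CPM per kilobase for mitochondrial and 5.77 ± 0.686 for nuclear genes (mean and SD over 10 libraries, here and for the other complexes). The mitochondrial and nuclear medians were 176 ± 34.2 and 8.76 ± 1.10 CPM per kilobase in complex III, 891 ± 50.05 and 8.16 ± 0.978 in complex IV, and 248 ± 60.2 and 6.63 ± 0.331 in complex V. The nuclear complex II genes had a median of 5.96 ± 0.557 CPM per kilobase, and the nuclear medians of the 5 complexes lay close together. The gap in complex V is one of medians: per kilobase of the longest transcript Atp5b, at 124.6, stood above mt-Atp8, at 119.5, and in summed CPM the 17 nuclear genes of complex V (533 to 631) exceeded the 2 mitochondrial genes (171 to 375) in all 10 libraries.

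Within the mitochondrial genome the counted levels were far from even. How reads that match more than 1 place in the genome were counted is not given in the sources used here. Levels of single mitochondrial genes, and ratios between them, are therefore uncertain where such reads occur. mt-Co1, the catalytic subunit of complex IV, reached 1658 CPM per kilobase and alone made up 53.4% to 57.3% of the mitochondrial CPM in the 10 libraries. mt-Nd4l, a small membrane subunit of complex I, had 11.5 CPM per kilobase, 144 times less than mt-Co1 (93 to 273 times in single libraries) and below the highest nuclear genes. mt-Nd4l and mt-Nd4 are known to share 1 message, as are mt-Atp8 and mt-Atp6. Per kilobase, mt-Nd4 was nevertheless 7.87 times mt-Nd4l (5.96 to 11.3 in single libraries) and mt-Atp6 was 3.14 times mt-Atp8 (2.45 to 3.99). How reads over both genes of a pair were assigned is not given, so these ratios and the level of mt-Nd4l are uncertain. mt-Nd6, the only protein-coding gene on the other strand, had 51.7 CPM per kilobase, close to the 46.4 of mt-Nd5, with which its end overlaps. The mitochondrial ribosomal RNAs, transcribed from the same genome, were at 0.247 to 1.42 CPM (mt-Rnr1) and 3.02 to 10.8 CPM (mt-Rnr2) in these libraries depleted of ribosomal RNA, so they give no measure of mitochondrial RNA.

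**Figure D1:**
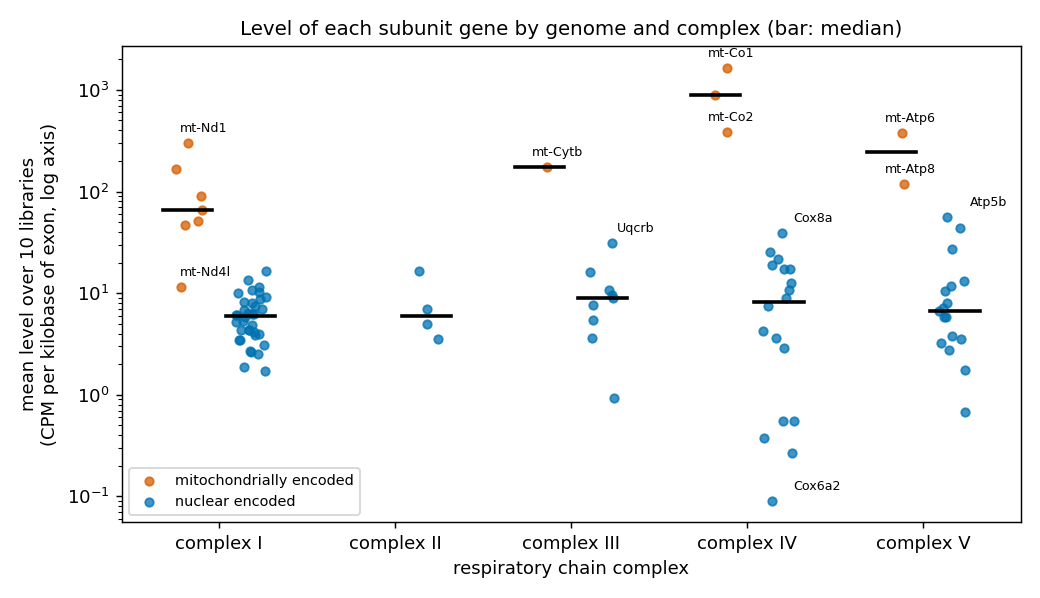
Mean level of each of the 97 genes over 10 libraries in CPM per kilobase of exon (log axis), by complex, for mitochondrial (orange) and nuclear (blue) genes, with the median of each set as a black bar. With exons as length, in complexes III, IV and V each orange point lies above every blue one, in complex I mt-Nd4l at 11.5 does not, and the lowest blue point is Cox6a2 of complex IV.

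Among nuclear genes, Atp5b and Atp5a1, which encode the β and α subunits of the catalytic head of ATP synthase, had the most CPM per kilobase at 56.4 and 43.4. The level of Atp5b was 1.30 times that of Atp5a1 (1.23 to 1.37 in single libraries), although the head holds equal numbers of both. Per kilobase of the longest transcript, in place of all annotated exons, the ratio was 2.45. Per kilobase the highest and lowest nuclear genes were Ndufb9 (16.3) and Ndufb4 (1.71) in complex I, Sdha (16.5) and Sdhb (3.56) in complex II, Uqcrb (31.1) and Uqcrq (0.932) in complex III, Cox8a (39.0) and Cox6a2 (0.0910) in complex IV, and Atp5b and Atp5g2 (0.673) in complex V. Per kilobase of the longest transcript the lowest were Ndufb7 (1.92) in complex I and Sdhc (5.05) in complex II, and the other genes named here kept their places. The processed pseudogene Ndufb4c was listed at 11.03 ± 0.784 CPM, above its parent Ndufb4 at 3.28 CPM, and Ndufs5-ps at 2.57 ± 0.571 CPM beside Ndufs5 at 4.48 CPM (SD, n = 10), so reads of such near-identical copies may have been divided and the levels of Ndufb4 and Ndufs5 are uncertain.

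Complex IV has subunits with more than 1 gene, and in the retina the general form of each had the higher level. Cox4i1 was at 18.9 CPM per kilobase and Cox4i2, its partner in lung and in low oxygen, at 4.28, a ratio of 4.43 (3.55 to 5.84 in single libraries), or 8.34 per kilobase of the longest transcript. Cox6b1 was at 25.3 and Cox6b2, the form of testis, at 0.548. For the forms typical of heart and skeletal muscle, Cox7a1 was at 0.553 CPM per kilobase against 7.501 for Cox7a2, Cox8b at 0.372 against 39.0 for Cox8a, and Cox6a2 at 0.0910 against 17.1 for Cox6a1. These 3 muscle forms, together with Cox6b2 and Ndufa4l2, were the 5 members that averaged under 1 CPM and were not tested, so 92 were tested. In right retinas Cox6a2 had 0.0445, 0.00939, 0, 0.0439 and 0.0438 CPM in mice 61, 64, 65, 66 and 68, and in left retinas 0.0211, 0, 0.0215, 0.00925 and 0.425 CPM. The left retina of mouse 68 was the highest of the 10 for Cox6a2, Cox7a1 (0.542 CPM) and Cox8b (0.287 CPM), and it also held the 94.3 CPM of muscle markers, among which all 12 were highest there. The part of muscle RNA in these 3 values was not tested. Counts of 3, the floor used here, are 0.0264 to 0.0335 CPM.

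The summed transcripts of the 2 genomes ran in opposite directions between the fellow eyes of each mouse. In right retinas the 13 mitochondrial genes summed to 4027, 5330, 4690, 4535 and 5142 CPM in mice 61, 64, 65, 66 and 68, and in left retinas to 3741, 4221, 5179, 5201 and 4550 CPM. The right retina was thus higher in mice 61, 64 and 68 and lower in mice 65 and 66, and the groups overlapped. The 84 nuclear genes summed to 1483, 1290, 1477, 1419 and 1414 CPM in right retinas and to 1580, 1422, 1369, 1312 and 1453 CPM in left retinas. Here the right retina was lower in mice 61, 64 and 68 and higher in mice 65 and 66, the reverse of the mitochondrial genes in 5 of 5 animals.

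The mitochondrial sum was 0.374% to 0.533% of the common library size to which CPM is scaled. All listed genes together summed to only 321661 to 346696 CPM, and the rest of that size belongs to no listed gene. The mitochondrial share of the listed genes is therefore higher. The log2 ratio of mitochondrial to nuclear CPM differed, right minus left, by 0.20, 0.48 and 0.22 in mice 61, 64 and 68 and by -0.25 and -0.31 in mice 65 and 66. Averaged over mice it came to 1.74 ± 0.228 in right and 1.67 ± 0.298 in left retinas (SD, n = 5 each), a difference of 0.07 ± 0.34 (SD over 5 mice), smaller than the spread between mice. No test was made of these sums over chosen members, and with 5 mice the smallest two-sided p that an exact sign-flip test can give is 0.0625.

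**Figure D2:**
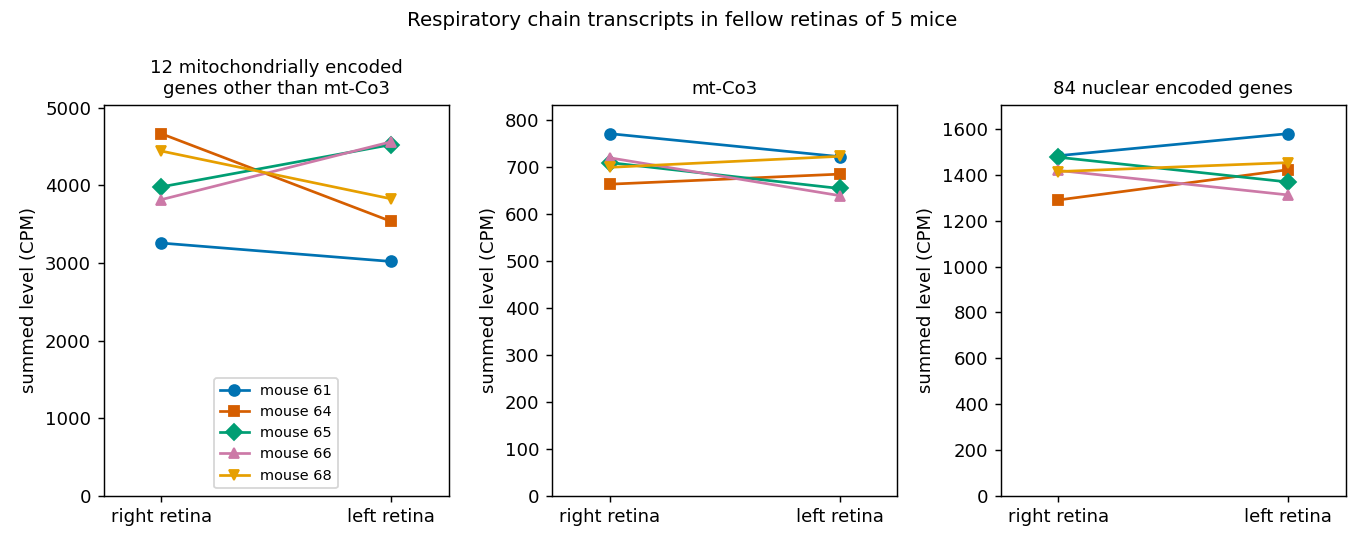
Summed CPM of the 12 mitochondrial genes other than mt-Co3 (left panel), of mt-Co3 (middle) and of the 84 nuclear genes (right), with right and left retinas of a mouse joined by a line and vertical axes that start at 0. Lines of mice 61, 64 and 68 descend from right to left retina in the left panel and rise in the right panel, and those of mice 65 and 66 do the reverse.

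The same opposition was seen in each of the 4 complexes with both genomes. On the log2(CPM + 1) scale, the mean right-minus-left difference of the 7 mitochondrial complex I genes was 0.22, 0.66, -0.24, -0.24 and 0.16 in mice 61, 64, 65, 66 and 68, and that of the 36 nuclear complex I genes was -0.13, -0.17, 0.12, 0.12 and -0.04. For complex III it was 0.28, 0.60, -0.27, -0.25 and 0.26 for mt-Cytb, the cytochrome b that oxidises ubiquinol, and -0.13, -0.17, 0.14, 0.12 and -0.06 for the 9 nuclear genes. Complex IV gave the smallest mitochondrial differences, 0.10, 0.22, -0.05, -0.09 and 0.14, beside -0.11, -0.18, 0.19, 0.18 and -0.03 for its 13 tested nuclear genes. Complex V gave 0.14, 0.68, -0.23, -0.35 and 0.27 for mt-Atp6 and mt-Atp8 and -0.09, -0.15, 0.14, 0.15 and -0.06 for the 17 nuclear genes. Complex II, with no mitochondrial gene, followed the nuclear side in 4 mice, with -0.07, -0.09, 0.19 and 0.17 in mice 61, 64, 65 and 66, and had 0.02 in mouse 68.

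In mouse 64, whose right library has the damaged read file, the mean differences were 0.55 for the mitochondrial and -0.16 for the nuclear genes, both the farthest from 0 of the 5 mice. In the other 4 mice the means were 0.19, -0.20, -0.23 and 0.18 for mitochondrial and -0.11, 0.14, 0.14 and -0.04 for nuclear genes, and the signs were still opposite in each. Over mice the means were 0.10 ± 0.32 for mitochondrial and -0.01 ± 0.14 for nuclear genes (SD, n = 5), both smaller than their spread. Without mouse 64 the mitochondrial mean was -0.01 and the nuclear mean 0.03.

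**Figure D3:**
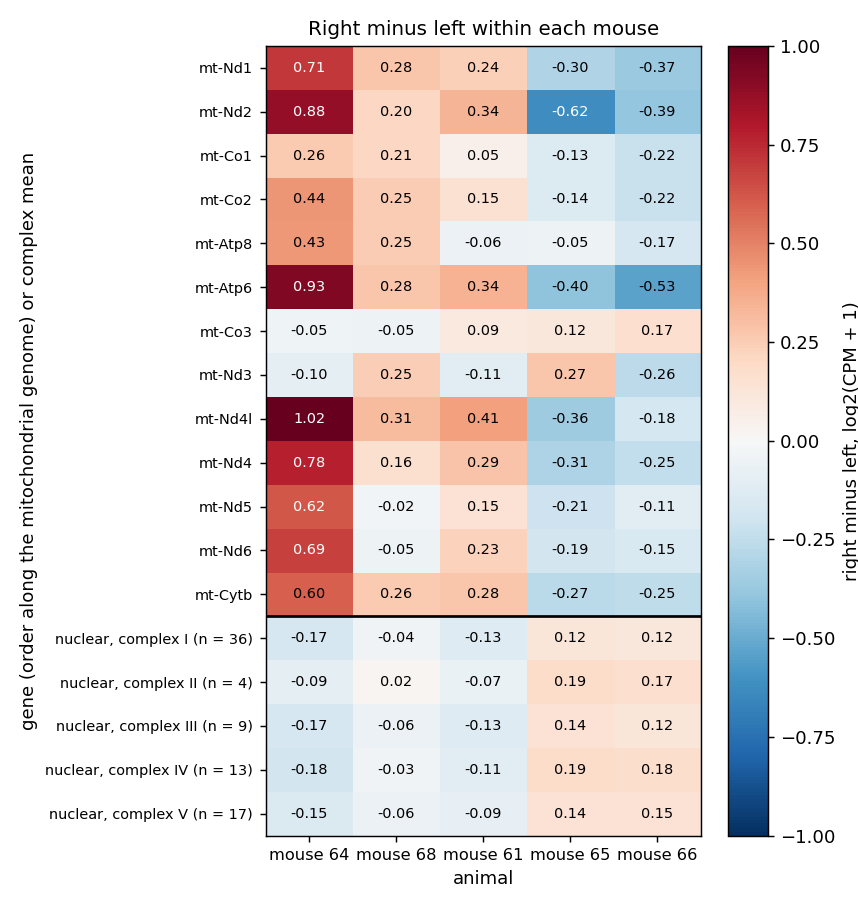
Right minus left on the log2(CPM + 1) scale in each mouse (columns) for the 13 mitochondrial genes in genome order and for the mean of the tested nuclear genes of each complex (rows, below the line), with red for higher and blue for lower on the right. Mice 64, 68 and 61 are mostly red above the line and mostly blue below it, mice 65 and 66 show the reverse, and mt-Co3 differs in sign from most rows around it.

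Counted gene by gene, 11 of 13 mitochondrial members were higher on the right in mouse 61, 11 in mouse 64 and 10 in mouse 68, whereas among all 14210 tested genes 38%, 44.1% and 47.1% were higher on the right in these mice. In mice 65 and 66, 11 and 12 of the 13 were lower on the right, against 37.3% and 39.6% of all tested genes. Of the 79 tested nuclear members, 69, 63 and 52 were lower on the right in mice 61, 64 and 68, against 62%, 55.9% and 52.9% of all tested genes, and 65 and 66 were higher on the right in mice 65 and 66, against 62.7% and 60.4%. The full mitochondrial pattern, with the right retina above the left in mice 61, 64 and 68 and below it in mice 65 and 66, was met by 8 of the 13 (mt-Nd1, mt-Nd2, mt-Nd4, mt-Nd4l, mt-Co1, mt-Co2, mt-Atp6 and mt-Cytb) and by 5.9% of all tested genes. The reverse pattern was met by 0 mitochondrial and 33 of 79 nuclear members (41.8%), and by 17% of all tested genes. This pattern was seen in the data before it was counted, so its counts are a description.

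Only 2 nuclear members, Cox6c and Atp5md, showed the mitochondrial pattern. Cox6c, a small subunit of complex IV, had 38.6, 37.4, 39.4, 37.0 and 39.0 CPM in right and 36.1, 34.7, 42.3, 38.3 and 37.7 CPM in left retinas of mice 61, 64, 65, 66 and 68. Its differences within mice were 0.05 to 0.10 log2 units in size, and right and left retinas overlapped.

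The nuclear core subunits ranged from steady to variable over the 10 libraries. Sdha, the flavoprotein of complex II, had 69.9, 65.6, 72.3, 64.7 and 70.2 CPM in right and 70.6, 66.8, 66.7, 63.2 and 69.6 CPM in left retinas, with a highest-to-lowest ratio of 1.15 over the 10 libraries. Ndufs1, the largest iron-sulphur subunit of complex I, ranged by the same ratio of 1.15 and Ndufv2, another electron carrier of complex I, by 1.13. Some other core subunits ranged more widely, with ratios of 1.74 for Uqcrfs1 of complex III and Ndufs3 of complex I. Ndufv1 had a ratio of 1.56 and Cyc1, the cytochrome c1 of complex III, 1.38. Atp5b had 239.4, 215.5, 249.1, 244.3 and 242.8 CPM in right and 252.4, 243.1, 231.5, 222.4 and 247.6 CPM in left retinas, lower on the right in mice 61, 64 and 68 and higher in mice 65 and 66. Small subunits of complex IV also differed among themselves. Cox7a2 ranged 2.33-fold, with right-minus-left differences of -0.17, -0.59, 0.28, 0.51 and -0.03, and Cox7c ranged 2.35-fold, whereas Cox6a1 ranged 1.16-fold and Cox6c 1.22-fold.

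The spread of log2(CPM + 1) over the 10 libraries had a median SD of 0.30 among the 13 mitochondrial genes (0.08 to 0.46) and of 0.14 among the 79 tested nuclear genes (0.05 to 0.32). mt-Nd4l, mt-Nd2 and mt-Atp6 had the widest mitochondrial spread, and mt-Co3 and mt-Nd3 the narrowest. mt-Nd4l, also the mitochondrial gene with the lowest mean CPM, had 2.26, 4.80, 4.30, 3.04 and 4.09 CPM in right and 1.46, 1.85, 5.79, 3.57 and 3.10 CPM in left retinas.

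mt-Co3, a core subunit of complex IV, ran against the summed CPM of the other 12 mitochondrial genes in 4 of 5 mice. Setting mt-Co3 apart was not planned beforehand. mt-Co1 is the largest part of that sum, and mt-Nd3, also among the 12, differed from it in sign in mice 61, 64 and 65. It measured 770.7, 663.1, 709.0, 719.2 and 698.9 CPM in right and 721.7, 684.5, 654.0, 638.8 and 722.4 CPM in left retinas. The right-minus-left difference of mt-Co3 was 0.09, -0.05, 0.12, 0.17 and -0.05 in mice 61, 64, 65, 66 and 68, and that of the summed CPM of the other 12 was 0.11, 0.40, -0.18, -0.26 and 0.22 (log2 ratios). Only in mouse 61 did both have the same sign. Its share of mitochondrial CPM ran between 12.3% and 19.3%, highest in both retinas of mouse 61.

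The gene just before it is mt-Atp6, a proton-channel subunit of complex V whose annotated sequence meets that of mt-Co3 at 1 base (sequence above). mt-Atp6 had 193.4, 345.0, 260.2, 229.6 and 285.1 CPM in right and 152.2, 181.1, 344.1, 332.9 and 234.7 CPM in left retinas. The ratio of mt-Atp6 to mt-Co3 CPM, from neighbouring stretches of the same strand, was 0.251, 0.520, 0.367, 0.319 and 0.408 in right and 0.211, 0.265, 0.526, 0.521 and 0.325 in left retinas. It differed between the eyes of mouse 64 by 0.98 log2 units and by -0.52 and -0.71 in mice 65 and 66. mt-Nd3, the next protein-coding gene after mt-Co3, had differences of -0.11, -0.10, 0.27, -0.26 and 0.25. Of the remaining genes outside the pattern, mt-Atp8 was lower on the right in mouse 61, and mt-Nd5 and mt-Nd6 were lower on the right in mouse 68.

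No member passed the test of right against left. In the limma fit with the mouse as a block, 0 of the 92 tested members and 0 of all 14210 tested genes passed an adjusted p of 0.05 (0%). Before adjustment, 0 of 92 members and 2.34% of all genes (333) had p under 0.05. The mean difference was above 0 for all 13 mitochondrial genes, at 0.01 to 0.24 log2 units, and for 37 of the 79 nuclear members, which spanned -0.12 to 0.13. The median standard error was 0.11 for mitochondrial and 0.07 for nuclear members, against 0.06 for all tested genes. No member went the same way in all 5 mice, whereas the right retina was above the left in 5 of 5 mice for 2.78% of all tested genes and below it for 2.01%.

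The member nearest to the threshold was Cox8a, a small subunit of complex IV (chromosome 19, bases 7215153 to 7217616 of GRCm38, - strand). Cox8a had 20.3, 23.6, 26.2, 27.6 and 27.1 CPM in right and 21.2, 20.4, 24.2, 25.2 and 25.2 CPM in left retinas. The right retina was higher in 4 of 5 mice, by 0.10 log2 units on average (SE 0.04, unadjusted p = 0.0535, limma adjusted p = 0.9996), and the groups overlapped. By the lowest unadjusted p, the others with positive differences were Atp5j (0.08), Ndufs5 (0.07), Atp5j2 (0.10) and Cox7c (0.13), and those with negative differences included Ndufb7 (-0.12), Ndufa13 (-0.06), Uqcrh (-0.09) and Atp5o (-0.11). Their unadjusted p lay between 0.0999 and 0.328, with an adjusted p of 0.9996 for each by limma. The difference of Cox7c rested on mouse 65 and was -0.018 without it.

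More members had a low p between mice than between sides, although none passed after adjustment. In the moderated F-test of limma for the mouse terms, 0 of 92 members passed, against 81 of 14210 tested genes (0.57%), and the lowest adjusted p of a member was 0.165, for Cox8a. Before adjustment, 25 members had p under 0.05, which is 27.2% of the 92 and stands beside 13.8% of all tested genes. Of these 25, 9 were mitochondrial and 16 nuclear.

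Mouse 61 stood at an extreme for most of them. Among the 9 mitochondrial genes it was the lowest mouse for 8, and mouse 65 was the highest for 7. Among the 16 nuclear genes mouse 61 was the highest for 14, and mouse 64 or 66 the lowest for 6 each. Over all 79 tested nuclear members the left retina of mouse 61 was the highest library for 49 (62.0%), as it was for 28.1% of all tested genes, and the right retina of mouse 64 was the lowest for 29 (36.7%), as it was for 13.6% of all.

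Examples show both directions. Ndufv1, the NADH-binding subunit of complex I, had 24.4, 17.8, 18.3, 19.8 and 16.2 CPM in right and 25.2, 20.1, 18.9, 16.2 and 19.0 CPM in left retinas, with both retinas of mouse 61 above the other 8 (unadjusted p = 0.00606, limma adjusted p = 0.218). Uqcrfs1, the Rieske iron-sulphur protein of complex III, had 8.57, 6.09, 8.05, 7.24 and 7.52 CPM in right and 10.2, 5.86, 6.68, 6.04 and 8.43 CPM in left retinas (unadjusted p = 0.00802, limma adjusted p = 0.235). mt-Atp8 had 17.8, 29.8, 24.9, 25.3 and 27.9 CPM in right and 18.6, 21.8, 25.8, 28.6 and 23.3 CPM in left retinas, lowest in both retinas of mouse 61 (unadjusted p = 0.0109, limma adjusted p = 0.254). Cox8a was an exception among nuclear genes, with the lowest mean in mouse 61. Without mouse 61, 4 members had an unadjusted p under 0.05 in place of 25. Without mouse 64 it was 32, and 1 member, mt-Nd5, passed after adjustment. The calls over all tested genes also moved, with 23 passing after adjustment without mouse 61 and 88 without mouse 64, against 81 with all 5 mice. For these fits the share of all genes with an unadjusted p under 0.05 is not given here.

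Genes outside the chain differed between fellow eyes in the same directions as its nuclear members. The median right-minus-left difference of 77 genes of the cytosolic ribosome was -0.10, -0.21, 0.15, 0.16 and -0.07 in mice 61, 64, 65, 66 and 68, beside -0.08, -0.15, 0.14, 0.13 and -0.03 for the 79 nuclear chain members and -0.04, -0.02, 0.04, 0.04 and -0.01 for all tested genes. For 78 genes of the mitochondrial ribosome, which are likewise nuclear genes of mitochondrial proteins, it was -0.05, -0.02, 0.04, 0.08 and -0.02.

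The differences also varied with transcript length and base composition. Nuclear members are short, with a median longest transcript of 1046 bases against 3670 for all tested nuclear protein-coding genes. Genes outside the chain with transcripts under 700 bases had median differences of -0.11, -0.17, 0.12, 0.11 and -0.04, and those of at least 4000 bases -0.02, -0.00, 0.04, 0.03 and -0.01. By GC content, genes outside the chain under 42% had 0.03, 0.05, -0.00, -0.02 and 0.03, and those of at least 54% had -0.12, -0.09, 0.09, 0.08 and -0.05. The mitochondrial genes, at 31.9% to 41.1% GC, fall in the first of these GC classes, whose medians had the signs of the mitochondrial genes in 5 of 5 mice at a much smaller size. The 8 nuclear members in that same class had the opposite signs in 5 of 5 mice, with medians of -0.06, -0.17, 0.14, 0.13 and -0.0035. The CPM taken by all listed genes likewise followed the nuclear members, with right-minus-left log2 ratios of -0.05, -0.04, 0.03, 0.03 and -0.02. The part of length, base composition and library composition in the pattern was not tested.

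**Figure D4:**
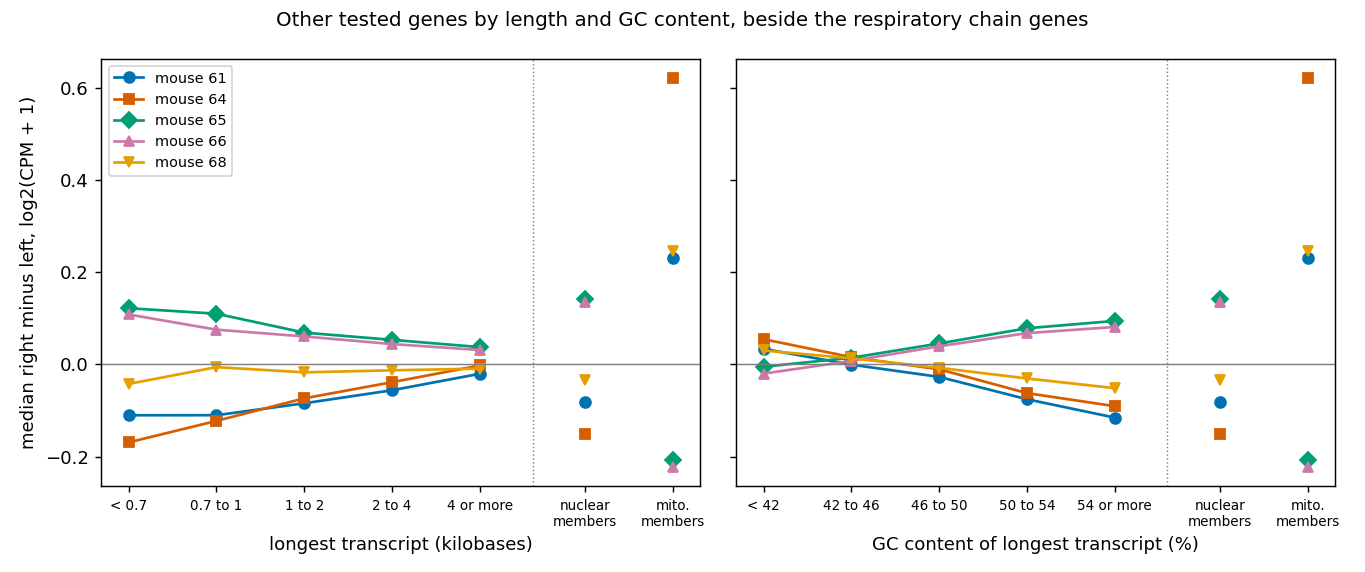
Median right minus left on the log2(CPM + 1) scale in each mouse for tested genes outside the chain, by length of the longest transcript (left panel) and by its GC content (right panel), with the nuclear and mitochondrial chain genes at the right of each panel. Mice 65 and 66 lie above the others among short and GC-rich genes and among nuclear members, and below them among mitochondrial members.

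Of the retinal cell markers, the 8 cone markers had summed right-minus-left log2 ratios of -0.15, -0.25, 0.09, 0.19 and 0.05, and the 10 rod markers -0.11, -0.16, 0.06, 0.08 and 0.05, with the signs of the nuclear members in 4 of 5 mice. The 6 Müller glia markers had -0.12, -0.08, 0.15, 0.11 and 0.05. The 7 bipolar cell markers had -0.04, 0.07, -0.04, -0.02 and 0.01, and the 6 amacrine cell markers -0.05, 0.03, 0.06, -0.04 and 0.04. The 7 ganglion cell markers had 0.01, 0.19, -0.16, -0.10 and -0.04, with the signs of the mitochondrial members in 4 of 5 mice, as had the bipolar markers. Markers of blood had -0.37, -0.73, 0.07, 0.50 and 0.04, those of pigment epithelium 0.23, -0.73, 0.85, 0.52 and 0.59, and those of fibroblasts 0.36, 0.13, 0.59, 0.39 and 1.00. The part of cell composition in the pattern was not tested.

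Genes that serve the chain but are not its members did not pass either test, and few genes of any kind did. Of all tested genes 0% passed right against left and 0.57% between mice, so counts of 0 in such short lists are near those shares. Of 38 genes that copy, transcribe or mature mitochondrial nucleic acid or drive the nuclear subunit genes, a list that also holds Cycs, the electron carrier cytochrome c, 0 passed right against left by limma and 0 between mice, with 20 higher and 18 lower on the right on average. Tfam, which packages and transcribes mitochondrial DNA, averaged 4.65 CPM in right and 4.66 CPM in left retinas, and Ppargc1a, a coactivator of mitochondrial biogenesis, 23.8 and 23.6 CPM. Of 47 assembly factors 44 were tested and 0 passed in either test, with 18 higher and 26 lower on the right. The summed CPM of the assembly factors differed by -0.11, -0.10, 0.02, 0.07 and -0.03 log2 units in mice 61, 64, 65, 66 and 68, with the signs of the nuclear subunits, and that of the 38 genes by -0.02, -0.01, 0.02, 0.00 and -0.02.

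Many nuclear genes of the chain are known targets of NRF1 and of the ETS factor GABP. RefSeq promoter windows on GRCm38.p6, from 250 bases before to 50 after the start of a gene, were at hand for 67 of the 84 nuclear members. The letters GCATGCGC, part of the NRF1 motif, were found on either strand in 10 of the 67 (14.9%), beside 2.71% of 32851 promoters. CCGGAAG, a core of ETS sites, was found in 16 (23.9%), beside 8.86%. The 32851 windows outnumber the 16635 protein-coding genes of the deposited table. They are thus not 1 window per such gene, as the member windows are, and the shares are not like for like. Of the 67 promoters, 5 held both. A stretch around the NRF1 letters is shown for 1 member of each complex, on the strand of the gene. Capitals mark the letters as found on the printed strand or as their reverse complement. In Cox6a1 and Atp5k there are 2 overlapping matches, on both strands, and the capitals mark the reverse complement only.
Ndufa6, complex I (chr15:82354357-82354384, - strand): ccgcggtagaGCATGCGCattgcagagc
Sdhb, complex II (chr4:140961207-140961234, + strand): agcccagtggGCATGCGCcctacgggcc
Uqcr11, complex III (chr10:80406808-80406835, - strand): tcgccttcacGCATGCGCtatacgtctg
Cox6a1, complex IV (chr5:115349103-115349130, - strand): caggaacgggGCGCATGCgcgctctcgc
Atp5k, complex V (chr5:108434432-108434459, - strand): tttcactgcgGCGCATGCgcctttctgg
These matches describe the letters in the windows and were not measured as sites. Nrf1 itself averaged 21.2 CPM in right and 21.5 CPM in left retinas.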

How the data were processed

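The deposited table holds CPM with 0.0001 added to every value, which the authors made with STAR and Partek on GRCm38 (mm10), per the submitters' processing notes. For versions and the counting rule, nothing is given in the sources used here. The unit was read from the values. Once 0.0001 is taken off, 89.9% to 90.7% of the low values (up to 20 steps) were whole multiples of the value of 1 count within 0.1, too few to recover counts, so no count model was used. One count was worth 0.00879 to 0.0112 CPM.

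Genes averaging 1 CPM or more over the 10 libraries, 14210 in all, were fitted with limma 3.58.1 (R 4.3.3) on log2(CPM + 1), a scale that understates changes of low genes, with mouse and side as terms, variances following the trend, two-sided tests and Benjamini-Hochberg adjustment over all tested genes. The mouse is a block because both retinas of a number come from 1 animal. As a check, the departures of fellow retinas from their side's mean had correlations over the tested genes of 0.61 (mouse 61), 0.14 (64), 0.17 (65), 0.17 (66) and 0.31 (68). The fit was also run on data simulated with independent errors for each gene, unlike the members, which moved together within libraries. Its outcome is not given here. Lengths, GC content and mitochondrial sequence came from GENCODE M21. Levels per kilobase divide CPM by the union of exons.

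The members, gene lists and rule for naming genes were chosen with earlier results of these data known. By that rule the text may name the mitochondrial genes, the core nuclear subunits, subunits with partner genes, the highest and lowest nuclear gene per complex, the 5 nuclear genes per direction with the lowest p for side and the 10 members with the lowest p between mice. A gene that the rule would name is not reported here. Cox6c, Atp5md and genes of the lists were named beside these after their values were seen. The floor of 3 counts covers counting error only. Other pseudocounts, filters and scalings, no block, and leaving out each mouse were tried.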

Additional observations from a re-analysis of the deposited data

Results flagged for a closer look

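Each side was searched, member by member, for a library whose gap to its nearest neighbour took most of the range of the 5, and 10 of 194 groups of 5 were singled out, close to the 1 in 20 that chance gives. The right retina of mouse 64 was low for 5 members: Atp5b at 215.5 CPM (239.4 to 249.1 in the other 4 right retinas), Cox6b1 at 15.3 CPM (18.4 to 18.7), Ndufs1 at 28.2 CPM (31.3 to 32.5), Sdhd at 6.94 CPM (8.998 to 9.68) and Uqcrq at 1.31 CPM (1.79 to 1.94). It is the library with the damaged read file. The left retina of mouse 61 was high for 3 members: Cox7c at 6.22 CPM (2.65 to 3.64 in the other 4 left retinas), Ndufb7 at 11.1 CPM (8.09 to 8.70) and Ndufs3 at 11.8 CPM (7.95 to 8.82). The right retina of the same mouse was high for Ndufa13, at 15.3 CPM (12.3 to 12.97 in the other 4 right retinas). Cox6a2 was high in the left retina of mouse 68, at 0.425 CPM (0 to 0.0215 in the other 4 left retinas), the library with muscle transcripts.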

How the results depend on the processing

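The opposite signs of the mean mitochondrial and nuclear differences held in 5 of 5 mice with a pseudocount of 0.1 or 5 CPM, with no filter, with a filter of 5 CPM, and with each library rescaled to its nuclear listed genes or by the median ratio. Leaving out 1 mouse at a time, the mean right-minus-left difference ran between -0.01 and 0.18 for mitochondrial and between -0.05 and 0.03 for nuclear members, and that of the log2 ratio of their sums between -0.04 and 0.16. Each range crosses 0, so the direction of each mean depends on which mice are included. The number of members passing right against left was 0 in every fit tried, including the fit without the replicate block (0 of 92). The number passing between mice ran from 0 to 1 as mice were left out (1, mt-Nd5, without mouse 64). Over all tested genes, the number passing between mice ran from 23 to 88 as mice were left out. Per kilobase of the longest transcript in place of the union of exons, the nuclear medians were 7.79 for complex I, 6.73 for II, 11.1 for III, 11.6 for IV and 10.9 for V. Fewer bases are counted per gene in that measure, and the mitochondrial levels are the same in both. Of the alternatives for named members, 227 gave the same direction and call, and Cox7c turned to -0.018 without mouse 65 (0.24 without mouse 61, its highest). With 5 mice and unknown lens sides, right-minus-left means near 0 do not show that the lens had no effect.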
